A study of Mus musculus with 18 samples.

Results

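The transcripts of Lyz2 and Lyz1, the neighbouring genes for lysozyme M and lysozyme P of the mouse, were followed in bone marrow derived macrophages labelled as knockout for ribosomal protein L13a and in wild type cells. The members were chosen by gene symbol, by a rule that holds no measured value, and are 2 of the 21954 genes in the deposited tables. Both passed the filter on low counts, as did 12514 genes in all. RNA was sequenced from L13a knockout cells treated with IFN, treated with IL4 or left untreated, and from wild type cells (also called control in the labels) given the same 3 treatments. Each of the 6 groups held 3 libraries, 18 in all. The series describes the knockout as specific to macrophages. The type of IFN, the doses and times, the strain and age of the mice, the L13a allele and the Cre line are not given in the sources used here. The labels call IFN an M1 and IL4 an M2 cytokine, after the classical and alternative states of activated macrophages. Libraries are called by the number in their titles, which is 4 to 6 for IFN, 7 to 9 for IL4 and 1 to 3 for untreated cells, in both genotypes. The origin of the 3 libraries within a group (different mice, cultures or splits of a single sample) is not stated, so p-values measure the spread between these libraries, which may be technical. In each wild type group some libraries held Y-linked transcripts and others did not, so those were not all splits of a single sample. Untreated wild type libraries 2 and 3 were far more alike than any other pair of a group. The n = 3 of untreated wild type cells may thus overstate the number of independent libraries.

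Lysozyme is a secreted enzyme that cuts the sugar backbone of bacterial peptidoglycan. In the mouse, Lyz2 is the form made by macrophages and other myeloid cells and Lyz1 is the form made by Paneth cells of the small intestine. The LysM-Cre line, widely used to delete genes in macrophages, carries Cre recombinase inserted in the Lyz2 gene, so that the modified copy makes Cre in place of lysozyme M. A knockout made with such an insertion can differ from wild type cells at the Lyz2 locus as well as at the targeted gene, and in the comparisons below loss of L13a and a change at Lyz2 cannot be told apart.

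Both genes lie on the minus strand of mouse chromosome 10 in the GENCODE vM21 annotation of GRCm38, with 4 exons each. Lyz2 (ENSMUSG00000069516.8) spans chr10:117277331-117282321 and Lyz1 (ENSMUSG00000069515.6) spans chr10:117287797-117292868, with 5475 bp between them. No other annotated gene overlaps either. The copies are close in sequence, and their exon 2, whose full length of 165 bases encodes protein, is printed to show where they differ. The bases that differ between the copies are in capitals, and both sequences are given 5′ to 3′ on the minus strand, from chr10:117280641-117280805 for Lyz2 and chr10:117291029-117291193 for Lyz1.
Lyz2 exon 2: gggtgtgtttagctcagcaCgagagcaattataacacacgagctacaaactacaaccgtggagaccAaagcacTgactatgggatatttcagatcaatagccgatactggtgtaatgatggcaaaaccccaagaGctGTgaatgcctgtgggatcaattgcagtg
Lyz1 exon 2: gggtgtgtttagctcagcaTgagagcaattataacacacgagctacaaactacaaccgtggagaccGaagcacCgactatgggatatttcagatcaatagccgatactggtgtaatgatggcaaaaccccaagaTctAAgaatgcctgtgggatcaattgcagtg
In exon 2 the copies differ at 6 of 165 bases (96.4% identical), and over the whole aligned transcripts they differ at 51 of 1262 bases (96.0% identical). Of the windows of 50 bases in the Lyz1 transcript, 16.1% also occur without a mismatch in the Lyz2 transcript. For windows of 100 bases it is 2.06%, and for windows of 150 bases 0%. The length of the reads is not stated here. Reads that lie within shared windows fit both genes, and RSEM shares them between the copies by estimate. The counts of each are thus uncertain by the reads it could have been given from the other. In the knockout, 9 of 9 Lyz2 values and 8 of 9 Lyz1 values were whole numbers, as given below. How far the low Lyz1 counts of wild type cells hold reads of Lyz2 was not tested.

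The regions upstream of the starts are less alike. The 201 bases from 250 to 50 bases before each RefSeq start (GRCm38.p6) are printed. They were chosen because the counts of both genes fell together in wild type cells after IFN, as described below. Capitals again mark bases that differ in an alignment of the copies, and the strand is minus, at chr10:117282322-117282522 for Lyz2 and chr10:117292918-117293118 for Lyz1.
Lyz2 upstream: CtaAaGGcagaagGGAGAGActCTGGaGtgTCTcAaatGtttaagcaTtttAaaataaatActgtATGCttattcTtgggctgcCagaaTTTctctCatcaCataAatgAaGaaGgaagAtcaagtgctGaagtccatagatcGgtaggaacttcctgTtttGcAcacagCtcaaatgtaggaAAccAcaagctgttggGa
Lyz1 upstream: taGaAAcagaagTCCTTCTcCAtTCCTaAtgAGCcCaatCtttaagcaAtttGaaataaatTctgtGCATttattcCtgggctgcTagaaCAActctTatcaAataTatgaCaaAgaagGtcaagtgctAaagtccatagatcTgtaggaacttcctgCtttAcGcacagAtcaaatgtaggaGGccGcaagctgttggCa
These windows differ at 48 of 199 aligned bases (75.9% identical). Searched on both strands, the letters AGGAAGT, a core bound by ETS factors such as PU.1, occur 1 time in the window of Lyz2 and 1 time in that of Lyz1, and in 5.71% of 32851 mouse windows of the same position and length. The letters TTGCNNAA, a core bound by C/EBP factors, occur 0 times in the Lyz2 window, 1 time in the Lyz1 window and in 8.17% of all windows. The letters TATAAA occur in neither, against 9.18% of all windows. All these windows end 50 bases before the start, so nothing is shown about these letters closer to it.

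The cells carried the transcripts of macrophages. All 13 macrophage markers of the list were detected in every library, with a summed level of 10527 to 21433 CPM (counts scaled to library size with TMM factors). Total expected counts ran from 18098711 to 28477342 per library. Rpl13a, the gene for L13a, had 248, 189 and 425 CPM in knockout cells with IFN (libraries 4, 5 and 6), against 437, 552 and 618 CPM in wild type cells with IFN. Its level was 206, 333 and 606 CPM in knockout cells with IL4, against 598, 743 and 867 CPM in wild type cells with IL4, and 156, 201 and 401 CPM in untreated knockout cells, against 617, 745 and 746 CPM in untreated wild type cells. Rpl13a was lower on average in the knockout under each treatment, with the groups overlapping only under IL4. Groups without overlap were also found for 9.33% of all genes tested with IFN and 14.1% in untreated cells. The log2 fold changes of Rpl13a of -0.90 ± 0.39 (IFN), -0.95 ± 0.39 (IL4) and -1.47 ± 0.39 (untreated; SE, n = 3 each) did not pass the test of edgeR (adjusted p = 0.772, 1 and 0.256). In untreated cells DESeq2 called it (-1.46, adjusted p = 0.0309). In untreated cells the sum of 10 fibroblast markers was 61.5 to 226 CPM in the knockout, against 528 to 594 CPM in the wild type. Of these, 0 of 8 tested markers were called, beside 0.0799% of all genes. Of 4 tested markers of bone-forming cells, 2 were called lower in the knockout, beside 0.0639% of all genes, and 1 of the 4 was above 0. With IFN the fibroblast markers ran the other way, with 8 of 8 above 0 and a median log2 fold change of 1.16. With IL4 7 of 8 were above 0 with a median of 0.90. Again 0 were called, beside 0.0639% of all genes under each cytokine. Their part in the genotype comparisons was not tested. Within the knockout, libraries 3, 6 and 9 held the most Rpl13a and the highest fibroblast marker sum of their groups. That sum was 371, 524 and 226 CPM in knockout libraries 6, 9 and 3, against 24.4 to 143 CPM in the other 6 knockout libraries. Y-linked transcripts were present in 0 of 9 knockout libraries and 5 of 9 wild type libraries.

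Lyz2 was nearly absent from the knockout and was among the most abundant transcripts of the wild type. Its level was 2.90, 2.95 and 1.19 CPM in knockout libraries 4, 5 and 6 with IFN, against 2881, 3096 and 4094 CPM in wild type libraries with IFN. After IL4 it was 7.12, 4.21 and 0.682 CPM in knockout libraries 7, 8 and 9, against 6186, 3532 and 5785 CPM in the wild type libraries. Untreated knockout libraries 1, 2 and 3 held 5.78, 5.48 and 1.85 CPM, against 12108, 10677 and 10767 CPM in the untreated wild type libraries. All 9 knockout libraries lay far below all 9 wild type libraries, and the highest knockout value came from IL4 library 7. The groups of libraries did not overlap in any treatment, which held for 9.33% of all genes tested under IFN, 5.04% under IL4 and 14.1% in untreated cells.

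**Figure D1:**
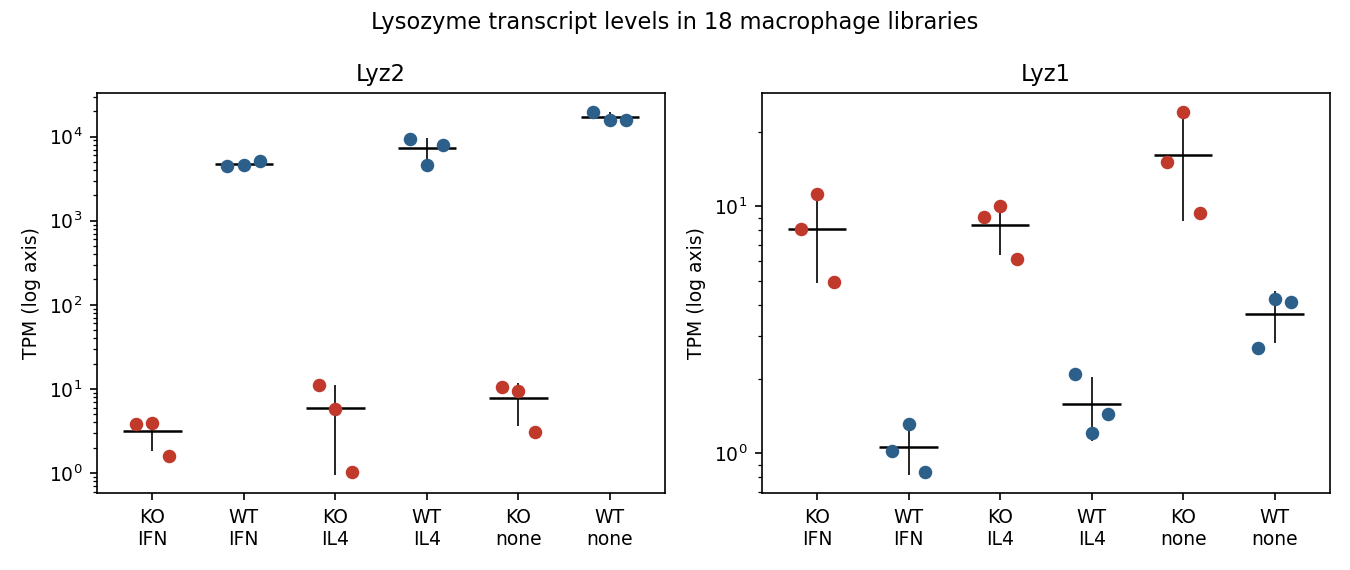
TPM (a level per transcript length, log axis) of Lyz2 (left) and Lyz1 (right) in each library of the 6 groups, knockout (KO, red) left of wild type (WT, blue) for IFN, IL4 and no treatment (none). Points are libraries, horizontal lines are group means and vertical lines ± SD (n = 3); Lyz2 reaches at most 11.08 TPM in knockout libraries and is at least 4483 TPM in wild type libraries, while Lyz1 lies higher in the knockout.

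The log2 fold change of Lyz2 in knockout against wild type cells was -10.46 ± 0.63 with IFN (adjusted p = 2.94e-07), -10.30 ± 0.61 with IL4 (adjusted p = 2.34e-07) and -11.34 ± 0.63 untreated (adjusted p = 8.65e-08; SE, n = 3 each, edgeR quasi-likelihood test with Benjamini-Hochberg adjustment). These differences correspond to levels 1406, 1260 and 2595 times lower. Lyz2 ranked 1 of 12514 genes by p-value in each of these comparisons, in which 0.0639% (IFN), 0.0639% (IL4) and 0.0799% (untreated) of genes passed the test in either direction, and 0.04%, 0.04% and 0.0639% were lower in the knockout. Over the 3 treatments the mean difference was -10.91 on the scale of log2(CPM + 0.1), and an exact permutation test of genotype labels within treatments gave p = 0.00025, the smallest that its 8000 arrangements allow (two-sided). In bulk RNA, fewer cells that express a gene and less RNA per cell cannot be told apart.

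Some Lyz2 counts remained in every knockout library. They were 56, 57 and 20 expected counts with IFN, 175, 89 and 14 with IL4, and 170, 115 and 56 in untreated cells. All 9 of these values were whole numbers (within 1e-09), as were 8 of the 9 Lyz1 values of the knockout. In the wild type, 0 of 9 Lyz2 values and 2 of 9 Lyz1 values were whole. Libraries 6, 9 and 3 held the lowest remaining Lyz2 of their groups, and also the lowest Lyz1.

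Lyz1 ran the other way. It had 6.11, 8.40 and 3.62 CPM in knockout libraries 4, 5 and 6 with IFN, against 0.656, 0.891 and 0.662 CPM in the wild type libraries with IFN. With IL4 it had 5.82, 7.23 and 4.04 CPM in knockout libraries, against 1.38, 0.905 and 1.07 CPM in wild type libraries. Untreated knockout libraries held 8.30, 13.8 and 5.67 CPM, against 1.64, 2.84 and 2.83 CPM in untreated wild type libraries. Every knockout library lay above every wild type library, and the groups did not overlap in any treatment (9.33% of genes with IFN, 5.04% with IL4 and 14.1% untreated). These are low levels, with 61 to 290 counts of Lyz1 per knockout library and 11 to 80 per wild type library.

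With IFN, Lyz1 was higher in the knockout by a log2 fold change of 3.03 ± 0.50 (8.17 times, adjusted p = 0.0344), where 0.024% of genes were higher; the shares with IL4 and untreated were 0.024% and 0.016%. With IL4 the value was 2.33 ± 0.45 (95% interval 1.39 to 3.28, adjusted p = 0.112) and in untreated cells 1.92 ± 0.36 (95% interval 1.15 to 2.69, adjusted p = 0.073; SE, n = 3 each, edgeR), which did not pass the test across all genes. The library number as a block, which the data back as a pairing for IFN and IL4 but not for untreated cells, brought both under the threshold, at 2.31 (adjusted p = 0.0228, IL4) and 1.87 (adjusted p = 0.0168, untreated). The call with IFN was lost when any library of these groups other than knockout library 6 was left out (highest adjusted p = 0.256), with the fold change between 2.72 and 3.28, and also with Y-linked transcripts as a covariate (adjusted p = 0.279) or with the 2 groups fitted alone (adjusted p = 0.346). In untreated cells the value without knockout library 3 was 2.195 (adjusted p = 0.0321). Knockout libraries 3, 6 and 9 hold the lowest Lyz1 of their groups, so leaving them out raises the difference by construction. Without them it was 3.27 (adjusted p = 0.00807) with IFN, 2.53 (adjusted p = 0.0327) with IL4 and 2.195 (adjusted p = 0.0154) in untreated cells. Over the 3 treatments, Lyz1 was higher by 2.29 on the scale of log2(CPM + 0.1), in all 9 pairs of same-numbered libraries (exact permutation test within treatments, p = 0.00025, the smallest it allows).

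The larger share of lysozyme counts came from Lyz1 in 8 of 9 knockout libraries and from Lyz2 in all 9 wild type libraries. Lyz1 made up 67.8%, 74.0% and 75.3% of the summed Lyz1 and Lyz2 counts in knockout libraries 4, 5 and 6 with IFN, against 0.0228%, 0.0288% and 0.0162% in the wild type libraries. With IL4 it made up 45.0% (95% Wilson interval 39.6 to 50.5), 63.2% and 85.6% (77.2 to 91.2) in knockout libraries 7, 8 and 9, against 0.0185% to 0.0256% in wild type libraries. In untreated cells it made up 58.9%, 71.6% and 75.4% in knockout libraries, against 0.0135% to 0.0266% in wild type libraries. These intervals cover counting error only. The share varied most under IL4, where knockout library 9 had few Lyz2 counts and library 7 the most. The mean share differed by 68.5 percentage points between knockout (68.5%) and wild type (0.0223%), with p = 0.00025 by the exact permutation test within treatments. Lyz2 is in the denominator of the share, so the fall of Lyz2 alone raises it, and this p is no separate test of Lyz1.

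**Figure D2:**
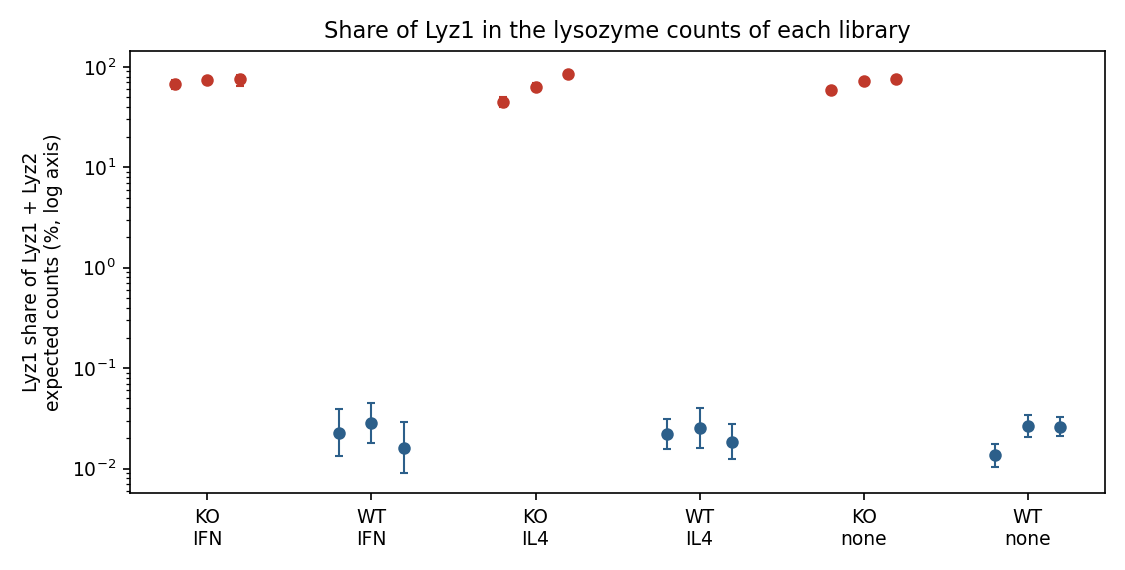
Share of Lyz1 in the summed expected counts of Lyz1 and Lyz2 (percent, log axis) in each library, knockout (KO, red) left of wild type (WT, blue) for each treatment (none: untreated). Points are libraries with 95% Wilson intervals; knockout libraries lie between 45.0% and 85.6% and wild type libraries below 0.03%.

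On the TPM scale, which allows for the length of the transcripts, Lyz1 was above Lyz2 in 8 of 9 knockout libraries and in 0 of 9 wild type libraries. The exception was knockout library 7 with IL4, with 9.07 TPM of Lyz1 and 11.08 TPM of Lyz2. The rise of Lyz1 was small beside the loss of Lyz2. The summed level of the copies was 11.2 ± 4.37 TPM in knockout cells with IFN, against 4755 ± 389 TPM in wild type cells with IFN, or 0.236% of the wild type level. With IL4 it was 14.4 ± 6.62 TPM in knockout cells, against 7300.1 ± 2424 TPM in wild type cells (0.197%), and in untreated cells 23.9 ± 10.8 TPM in the knockout, against 17107 ± 2347 TPM in the wild type (0.140%; SD, n = 3 each).

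Ordered by mean TPM, Lyz2 was highest in untreated wild type cells (17103 ± 2348), then in wild type cells with IL4 (7298 ± 2423) and with IFN (4754 ± 389), and then in knockout cells that were untreated (7.69 ± 4.05), with IL4 (5.97 ± 5.03) and with IFN (3.13 ± 1.32). The IL4 and IFN groups overlapped within the wild type, and the 3 knockout groups overlapped each other. Lyz2 was the 3rd to 5th most abundant of all genes by TPM in untreated wild type libraries, the 7th to 19th with IL4 and the 18th or 19th with IFN. It ranked between 7186 and 10885 in the knockout. For Lyz1 the order was untreated knockout (16.2 ± 7.48 TPM), knockout with IL4 (8.39 ± 2.03) and with IFN (8.08 ± 3.16), then untreated wild type (3.66 ± 0.87), wild type with IL4 (1.59 ± 0.46) and with IFN (1.06 ± 0.24; SD, n = 3 each). The knockout groups overlapped each other, as did wild type with IL4 and with IFN, while the lowest knockout value (4.92 TPM) lay above the highest wild type value (4.21 TPM).

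Neither gene passed the test in any cytokine comparison of knockout cells, whose values per library are given above, and 95% intervals were wide. Lyz2 after IFN gave -0.85 (interval -2.13 to 0.42, adjusted p = 0.363) and after IL4 -0.07 (-1.22 to 1.07, adjusted p = 0.968), against backgrounds of 21.6% and 9.48% of genes called. The groups of both genes overlapped in each of these comparisons, whereas 34.4% (IFN), 22% (IL4) and 32.4% (IFN against IL4) of genes did not. Lyz1 after IFN gave -0.58 (-1.30 to 0.14, adjusted p = 0.257) and after IL4 -0.68 (-1.38 to 0.03, adjusted p = 0.251). IFN against IL4 gave -0.78 (-2.08 to 0.52) for Lyz2 and 0.09 (-0.66 to 0.85) for Lyz1, with 22.2% of genes called and adjusted p = 0.426 and 0.895 by edgeR. The sign of the IL4 value of Lyz2 turned when knockout library 1, 2 or 9 was left out.

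The counts of both genes fell in wild type macrophages after IFN. Those of Lyz1 kept a nearly constant mean share of the summed Lyz1 and Lyz2 counts (0.0226% with IFN, 0.0221% untreated). How far they hold reads of Lyz2 was not tested. Lyz2 was at 2881, 3096 and 4094 CPM after IFN, against 12108, 10677 and 10767 CPM untreated, and Lyz1 at 0.656, 0.891 and 0.662 CPM after IFN, against 1.64, 2.84 and 2.83 CPM untreated. Neither gene's groups overlapped, as held for 37.3% of genes tested. The log2 fold changes were -1.74 ± 0.41 for Lyz2 (3.33 times lower, adjusted p = 0.00646) and -1.69 ± 0.55 for Lyz1 (3.23 times lower, adjusted p = 0.0427; edgeR, SE), in a comparison in which 7.55% of genes fell and 18.6% passed in either direction. The Lyz2 call held without any one library, with adjusted p at most 0.0307. The Lyz1 call held only without wild type library 1 and was lost without any other of the 6 (highest adjusted p = 0.121, fold change between -1.94 and -1.54). The wild type libraries that lack Y-linked transcripts are 1 with IFN and 2 untreated, and with these alone values were -1.38 for Lyz2 (adjusted p = 0.334) and -2.08 for Lyz1 (adjusted p = 0.311), the single IFN library being assumed to vary like the other groups, so the lost calls say little of stability. The summed fibroblast markers moved with this comparison, at 55.3 to 106 CPM after IFN against 528 to 594 CPM in untreated wild type cells, where 4 of the 8 tested markers fell and 0 rose. Of 4 tested markers of bone-forming cells, 3 fell. Their part in the result was not tested.

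After IL4, wild type Lyz2 was at 6186, 3532 and 5785 CPM, against 12108, 10677 and 10767 CPM untreated, again without overlap (28.5% of genes; 4.96% rose and 3.53% fell). Its log2 fold change of -1.11 ± 0.40 did not pass the test (adjusted p = 0.107, with 8.49% of genes called), and neither did that of Lyz1 (-1.09 ± 0.49, adjusted p = 0.215, 95% interval -2.12 to -0.05). Fibroblast markers summed to 136 to 269 CPM after IL4, against 528 to 594 CPM untreated, with 0 of 8 called, and 2 of 4 markers of bone-forming cells fell. Their part was not tested. With the 2 groups fitted alone, Lyz2 after IL4 passed at -1.12 (adjusted p = 0.0244). IFN against IL4 in wild type cells gave -0.62 ± 0.40 for Lyz2 (adjusted p = 0.323) and -0.60 ± 0.64 for Lyz1 (adjusted p = 0.596), where 21.1% of genes were called. On the CPM scale these groups overlapped for Lyz2 and did not for Lyz1 (36.1% of genes), whose groups overlapped in TPM.

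**Figure D3:**
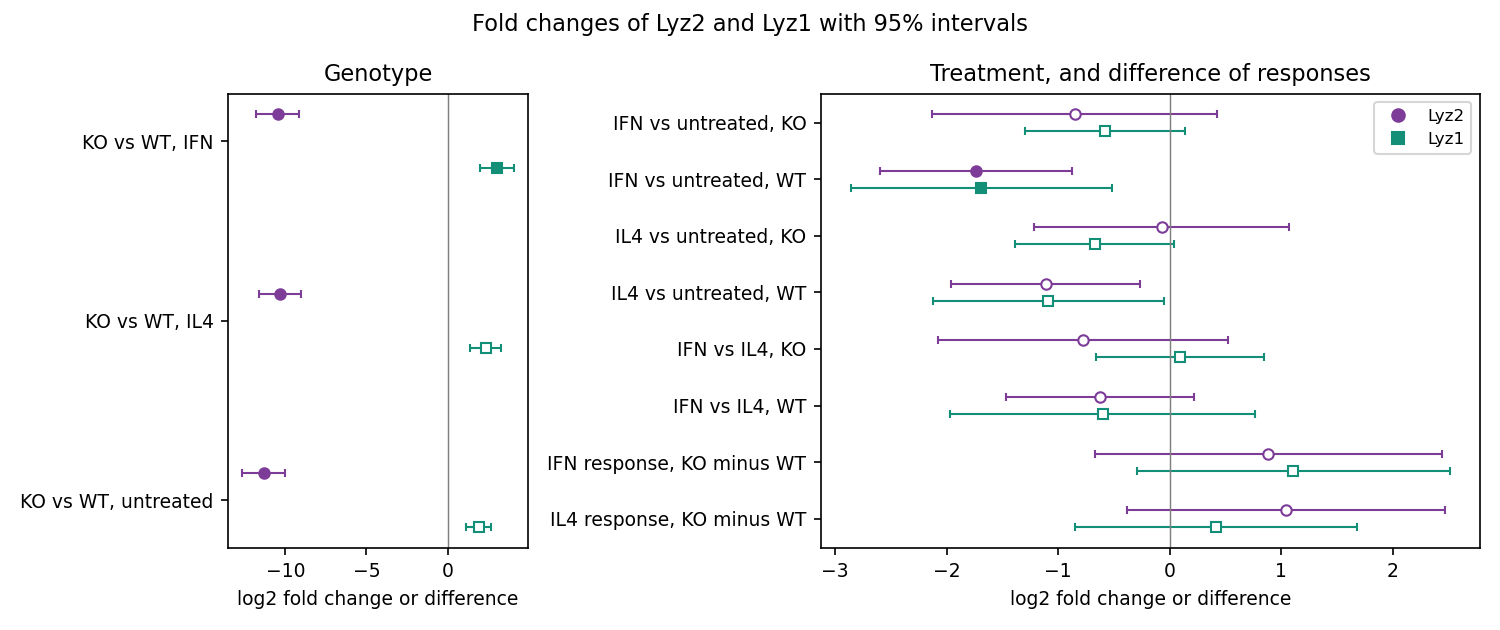
Log2 fold changes (horizontal axes) of Lyz2 (purple circles) and Lyz1 (green squares) with 95% intervals: knockout (KO) against wild type (WT) on the left, and cytokine comparisons within a genotype and the difference of responses between genotypes on the right. Filled symbols passed the test across all genes (adjusted p under 0.05); Lyz2 lies near -10 to -11 in the genotype comparisons, and on the right the filled symbols are those for IFN in wild type cells.

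Whether the genotypes differed in their responses was tested as an interaction. The IFN response in knockout minus wild type cells was 0.88 ± 0.73 for Lyz2 and 1.11 ± 0.66 for Lyz1, and the IL4 response 1.04 ± 0.67 for Lyz2 and 0.41 ± 0.60 for Lyz1 (log2, SE). By edgeR all 4 had an adjusted p of 1. Of all genes 0% were called in either interaction, with 617 (IFN) and 249 (IL4) genes at an unadjusted p under 0.05, and with 20 and 1 genes called by DESeq2. The IFN and IL4 comparisons of a genotype share its untreated libraries.

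Among the 9 knockout libraries, Lyz2 was lower where Rpl13a was higher. On log2(CPM + 0.1) Pearson's r was -0.872 (exact permutation p = 0.00244, adjusted over 6 relations 0.00731) and Spearman's rho was -0.80 (adjusted p = 0.0277). After centring on treatment means r was -0.934 (p = 0.00463, the smallest the exact permutation allows, adjusted 0.0278). Without libraries 9 and 6, the farthest from the median of Rpl13a, r was -0.651 (exact permutation p = 0.123). The relation was thus weaker and did not pass without them, in a smaller set of libraries with a narrower range. Without library 9 alone r was -0.777 (adjusted permutation p = 0.082), and the call held in the other 8 single omissions. Lyz1 with Rpl13a had negative values too (r = -0.745, rho = -0.85, adjusted permutation p = 0.0363 and 0.0182; r = -0.483 without the same libraries). Lyz1 and Lyz2 had r = 0.733 (adjusted exact permutation p = 0.0363; rho = 0.65, adjusted p = 0.0998), which was 0.369 without them. Both relations of Lyz1 were lost on leaving out library 1, 3, 4, 5, 6 or 9, and that with Lyz2 also without library 8 (adjusted permutation p between 0.0573 and 0.121). Libraries 3, 6 and 9 are also those with the most fibroblast marker transcripts and with the lowest sums of neutrophil and granulocyte precursor markers, cells that also make lysozyme M. That sum was 37.0, 39.2 and 38.1 CPM in knockout libraries 3, 6 and 9, against 68.3 to 133 CPM in the other 6. Only 2 or 3 of its 14 markers were above 1 CPM in any knockout library. Wild type libraries 3, 6 and 9 also had the lowest sums of their groups (32.4, 44.7 and 62.4 CPM), so this trait is not particular to the knockout. The part of either marker list in these relations was not tested. All p-values of these relations take the 9 libraries as independent. Whether libraries of different treatments share a source is not stated, so these p-values may be too small.

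**Figure D4:**
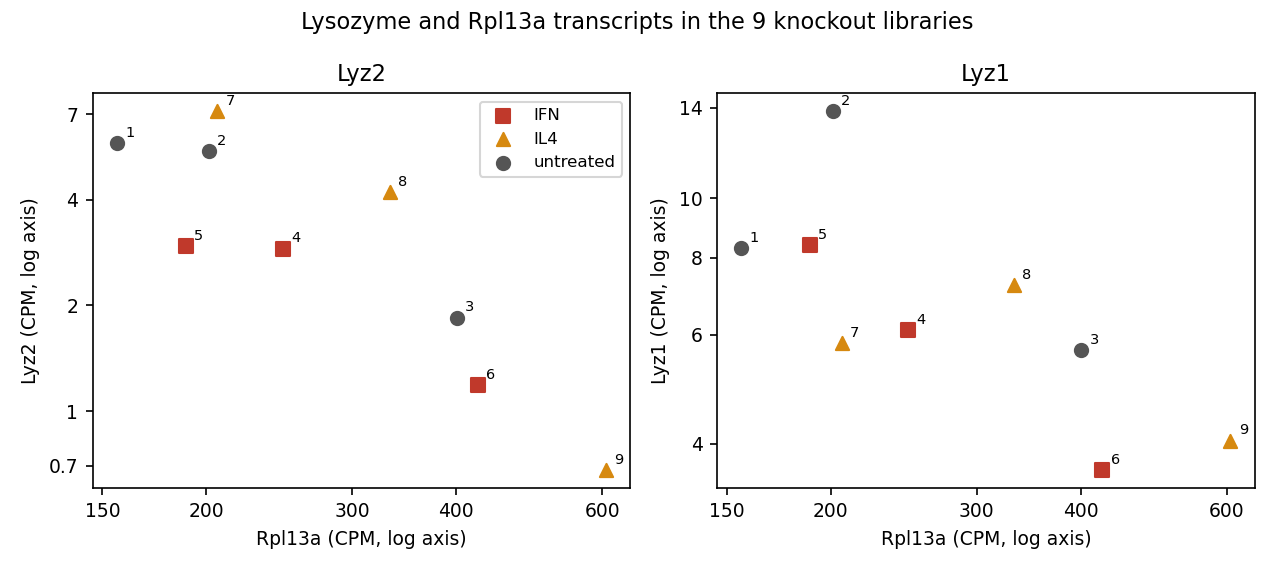
Level of Lyz2 (left) and Lyz1 (right) against Rpl13a in the 9 knockout libraries, in CPM on log axes; the number beside a point is that of the library, and symbols mark IFN (squares), IL4 (triangles) and untreated cells (circles). Libraries 3, 6 and 9 lie at the right with the most Rpl13a and at the bottom with the least Lyz2 of their treatments.

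In the 9 wild type libraries Lyz1 and Lyz2 had r = 0.895 (adjusted exact permutation p = 0.00731; rho = 0.883, adjusted 0.0182). After centring on treatment means r was 0.151 (exact permutation p = 0.657). Lyz1 had 11 to 80 counts in these libraries, and how far those hold reads of Lyz2 was not tested. As in the knockout, the permutations took the 9 libraries as independent. Neither gene was related to Rpl13a there on log2(CPM + 0.1) at the threshold (r = 0.493 for Lyz2 and 0.497 for Lyz1, adjusted exact permutation p = 0.177 for both; rho = 0.50 and 0.567).

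Of the wider lysozyme family, 11 of 12 listed genes were in the files. Lyz1, Lyz2 and Lyzl4, a lysozyme-like gene on chromosome 9 known mainly from testis, were tested, and the other 8 (9530003J23Rik, Lalba, Lyzl1, Lyzl6, Spaca3, Spaca5, Lyg1 and Lyg2) were listed at 0 in all 18 libraries. Lyzl4 had 0.829, 0.726 and 0.832 CPM in knockout cells with IFN, against 3.30, 7.20 and 3.33 CPM in untreated knockout cells. In wild type cells it had 0.656, 1.14 and 0.181 CPM with IFN, against 6.87, 3.73 and 5.34 CPM untreated. It fell after IFN in both genotypes, without overlap of the groups, by log2 fold changes of -2.49 ± 0.61 in the knockout (adjusted p = 0.00796) and -2.96 ± 0.61 in the wild type (adjusted p = 0.0026; edgeR). After IFN the groups did not overlap for 34.4% of all genes in the knockout and 37.3% in the wild type, and 8.93% and 7.55% fell. Lyzl4 was also lower with IFN than with IL4, at -3.25 ± 0.58 in the knockout (adjusted p = 0.00061) and -3.49 ± 0.60 in the wild type (adjusted p = 0.000411). In these contrasts 9.87% of genes in the knockout and 9.28% in the wild type were lower with IFN. Lyzl4 was not called in any comparison of genotypes.

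Of 13 listed neighbours of Lyz2 on chromosome 10, 9 were tested and 0 were called between genotypes in any treatment, beside 0.0639% (IFN), 0.0639% (IL4) and 0.0799% (untreated) of all genes, so that the count sets them apart from no other genes. Their median log2 fold changes were -0.10 (IFN), 0.09 (IL4) and 0.07 (untreated), against 0.02, 0.00444 and 0.00543 over all genes. Yeats4, a reader of acetylated histones, starts 57.8 kb beyond Lyz2 and had log2 fold changes of 0.13 ± 0.11 (IFN), 0.33 ± 0.10 (IL4) and 0.21 ± 0.10 (untreated). Cpsf6, a factor of mRNA 3′ end processing, lies on the other side of Lyz1 and had -0.34 ± 0.15, 0.01 ± 0.15 and 0.07 ± 0.15. None of these 6 values passed the test of edgeR (adjusted p between 0.692 and 1), though Yeats4 did not overlap between the genotypes under IL4 (5.04% of genes) or untreated (14.1% of genes).

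**Figure D5:**
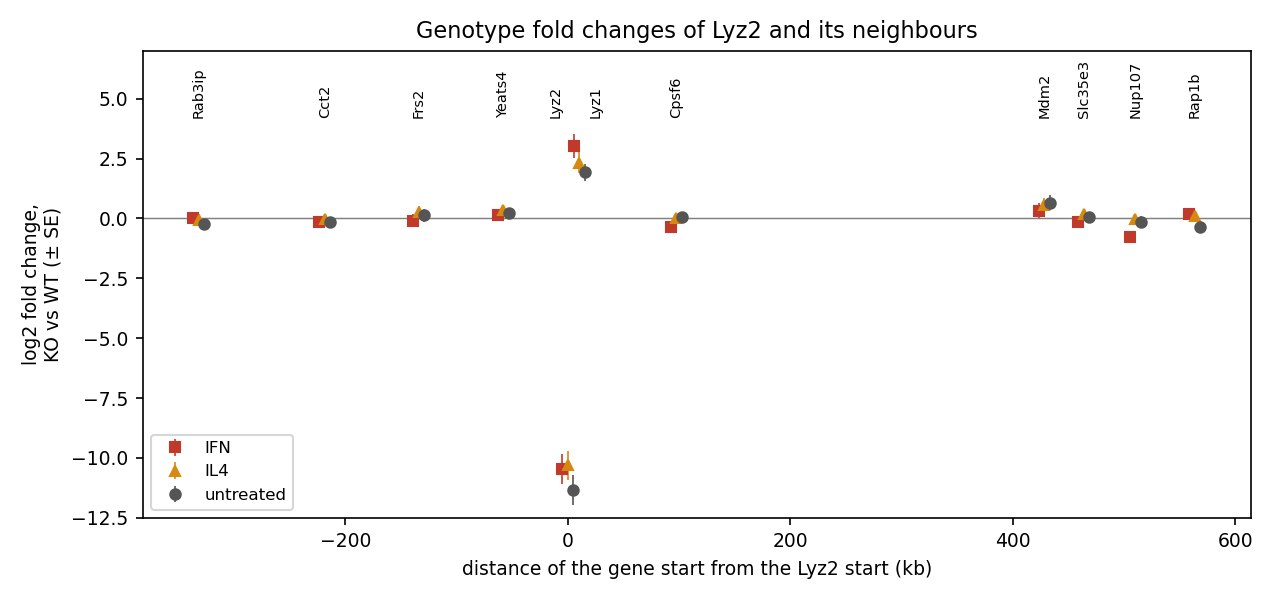
Log2 fold change in knockout against wild type (vertical axis, ± SE) of Lyz2, Lyz1 and the 9 tested neighbours by the distance of their starts from that of Lyz2 (kb), under IFN (red squares), IL4 (orange triangles) and untreated (grey circles); symbols of a gene are set side by side for sight. Lyz2 and Lyz1 stand apart from neighbours that lie between -0.76 and 0.65.

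Regulators that have been studied at lysozyme genes, among them PU.1 (Spi1), the C/EBP factors and CTCF, formed a list of 16. Of these, 15 were tested and 0 were called between genotypes under any treatment, as for nearly all genes (0.0639% to 0.0799% called), with medians between -0.04 and 0.03. After IFN, 1 rose and 2 fell in the knockout and 2 rose and 2 fell in the wild type, where 12.6% of all genes rose and 8.93% fell in the knockout and 11.1% rose and 7.55% fell in the wild type. Irf8, a factor of the interferon response and of macrophage differentiation, rose by 2.19 ± 0.30 in the knockout and 2.27 ± 0.30 in the wild type (log2, edgeR adjusted p = 7.45e-05 and 6.3e-05). Cebpa, a factor of myeloid differentiation, fell by 1.01 ± 0.19 in the knockout and 1.22 ± 0.19 in the wild type (adjusted p = 0.000983 and 0.000232). After IL4, 2 rose and 1 fell in each genotype (5.35% and 4.12% of all genes in the knockout), among them Klf4, a zinc finger factor of the IL4 state, at 2.02 ± 0.36 in the knockout (adjusted p = 0.00194) and 2.54 ± 0.37 in the wild type (adjusted p = 0.000354). Cebpa was then higher by 0.77 ± 0.18 in the knockout and 0.85 ± 0.18 in the wild type (adjusted p = 0.0147 and 0.00826), a direction opposite to that after IFN. This IL4 call was lost without untreated library 2 or 3 in the knockout (highest adjusted p = 0.0705) and without library 3 or 9 in the wild type (highest adjusted p = 0.055), and in the knockout under 4 of 10 other settings (highest adjusted p = 0.167).

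Between genotypes 0.0639% to 0.0799% of all genes were called, so the counts of 0 that follow set no list apart. Genes that sense or carry the peptidoglycan fragments released by lysozyme were likewise 0 of 12 tested called between genotypes. After IFN, 5 rose and 2 fell in the knockout, and 6 rose and 2 fell in the wild type (over all genes, 12.6% rose and 8.93% fell in the knockout and 11.1% rose and 7.55% fell in the wild type), with Nod1, an intracellular receptor for such fragments, higher by 3.51 ± 0.31 and 3.42 ± 0.30 (edgeR adjusted p = 6.11e-07 and 8.77e-07). Slc15a3, a lysosomal peptide transporter, rose after IFN (1.93 ± 0.29 in the knockout, 1.85 ± 0.29 in the wild type, adjusted p = 0.000142 and 0.000236). The remaining antibacterial genes of the phagosome were 0 of 15 called between genotypes, and 9 of them rose after IFN in the knockout and 7 in the wild type, while 0 fell in either, beside 12.6% and 11.1% of all genes that rose. Of 20 other secreted and lysosomal proteins of macrophages, 0 were called between genotypes. After IFN, 8 rose and 2 fell in the knockout (12.6% and 8.93% of all genes) and 4 rose and 2 fell in the wild type (11.1% and 7.55% of all genes). Ctsl, a lysosomal cysteine protease, fell, at -1.38 ± 0.37 in the knockout and -1.25 ± 0.37 in the wild type (adjusted p = 0.0133 and 0.0256). Its call was lost without knockout library 2 (adjusted p = 0.0584), and in the wild type without library 2, 3, 4 or 5 (highest adjusted p = 0.0964).

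Marker transcripts of the cells that make lysozyme elsewhere were low in both genotypes. The 8 Paneth cell markers summed to at most 0.243 CPM in knockout libraries and 0.223 CPM in wild type libraries, and at most 1 of them was detected in a library. Neutrophil and granulocyte precursor markers summed to 37.0 to 133 CPM in knockout libraries and 32.4 to 95.3 CPM in wild type libraries.

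By likeness of level over the 9 wild type libraries (Pearson's r on log2 CPM, 9658 genes averaging 5 CPM or more), the genes nearest to Lyz2 were Qsox1 (r = 0.971), Zdhhc14 (0.971), Hspb6 (0.970), Wwp1 (0.968) and Msrb2 (0.968). In the knockout their r with the remaining Lyz2 ran from -0.733 (Hspb6) to 0.680 (Wwp1). Over the 9 knockout libraries the genes nearest to Lyz1 among 9654 were Pygl (0.955), Slc39a4 (0.951), Nxpe5 (0.939), Dusp7 (0.934) and Adcy2 (0.916). These values are descriptions, as the libraries of a genotype share treatments and the genes were picked as the highest.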

How the data were processed

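Poly-A RNA of 18 macrophage libraries was sequenced, per the labels, with a kit that may or may not keep strand. The authors deposited RSEM expected counts, TPM, and a signal that is each library's TPM scaled by a factor (median-normalized TPM). Bowtie 0.12.8, RSEM 1.2.3 and build mm10 are named in the submitters' processing notes, and the annotation is not given in the sources used here. Groups were read from the labels. The genes, lists and tests were chosen with earlier results of these data known.

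Expected counts (21.5% not whole) were rounded, filtered with filterByExpr and scaled by TMM. All libraries entered 1 model with a coefficient for each group, fitted by edgeR 4.0.16 (R 4.3.3), and contrasts were judged by its quasi-likelihood test with robust estimation. P-values were adjusted by Benjamini-Hochberg over 12514 genes, and calls were made at an adjusted p under 0.05. CPM values are TMM-scaled. Intervals are 95%. DESeq2 1.42.0 and limma 3.58.1 were alternatives. Permutation tests used scipy 1.17.1 and Python 3.11.15. The fits were tested on simulated data. Depth of 18098711 to 28477342 counts per library limits the precision of Lyz1.

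Text names the members, Rpl13a, the nearest neighbours, called members of a list (from the 4 with the lowest p in a comparison), the lysozyme family, and the 5 genes most like each member, predicted genes and pseudogenes left out. Same-numbered knockout and wild type libraries deviated together over 12514 genes, with r of 0.135 to 0.296 with IFN and 0.323 to 0.586 with IL4. In untreated cells r was 0.0417 to 0.597, and 1 of 3 pairs was under 0.1. The number was thus backed by the data as a pairing for IFN and IL4. The main tests nevertheless held no block, and the block was run as an alternative. Wild type untreated libraries 2 and 3 differed least, at 5.97 times the chi-square that sampling noise gives, against 49.8 to 181 for other pairs. They were kept apart in all tests. Whether they share a source was not tested, and if they do, n = 3 overstates the independent libraries of that group. Positions and exon sequence are from GENCODE vM21 (GRCm38), and upstream sequence is from RefSeq (GRCm38.p6), where both genes were found by symbol. The annotations differ in the start of Lyz2. Its printed window ends 50 bases before the RefSeq start but directly beside the GENCODE start (117282321).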

Additional observations from a re-analysis of the deposited data

How the results depend on the processing

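The fall of Lyz2 in the knockout kept its direction and passed the test under every alternative run (log2 fold changes between -11.63 and -9.82). For Lyz1, which was higher in the knockout under all alternatives, the call depended on the setting. In untreated cells it passed with DESeq2 (1.94, adjusted p = 0.00105), limma on log2(TPM + 1) (1.81, 0.0413), and the replicate block (1.87, 0.0168), and without knockout libraries 3, 6 and 9 (2.195, 0.0154), an omission that removes the lowest Lyz1 values of the knockout and so raises the difference by construction, here and with IL4. With IL4 it passed with DESeq2 (2.36, 4.32e-05), limma on log2(TPM + 1) (1.85), log2(TPM + 0.1) (2.34) and log2(median-normalized TPM + 1) (1.81), the replicate block (2.31), without those knockout libraries (2.53), and with the earlier quasi-likelihood method (2.34, 0.0451). With IFN it was lost with the groups fitted alone (3.03, 0.346), the Y-linked covariate (2.79, 0.279), and the wild type libraries without Y-linked transcripts (3.20, 1). These are 1 library with IFN, 1 with IL4 and 2 untreated, so values with them rest on single libraries assumed to vary like the other groups, and say little of stability. That set of wild type libraries, the omission of knockout libraries 3, 6 and 9, and the earlier method were added after seeing the data. The causes were not tested. The block changed no other call of either gene; Rpl13a in untreated cells passed with it (-1.59), with DESeq2 (-1.46) and without knockout libraries 3, 6 and 9 (-1.97), which hold the most Rpl13a, as it did with IFN without them (-1.30).

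The IFN response of wild type cells lost its call for Lyz1 with the Y-linked covariate (-1.56, 0.0829) and the wild type libraries without Y-linked transcripts (-2.08), and for Lyz2 with limma on log2(TPM + 0.1) (-1.84, 0.0583) and those libraries (-1.38). Lyz2 after IL4 in the wild type passed with the groups fitted alone (-1.12), and Lyz1 after IFN in the knockout with limma on log2(TPM + 1) (-0.89, 0.0407). IFN against IL4 for Lyz1 in the knockout turned to -0.087 and -0.10 with limma on log2(TPM + 1) and log2(TPM + 0.1). Leaving out a library each gave 1.54 to 2.195 (Lyz1, untreated genotypes), 2.72 to 3.28 (IFN genotypes), -1.94 to -1.54 (IFN, wild type), -0.22 to 0.34 (IFN against IL4, knockout), and -0.81 to 0.39 (Lyz2 after IL4, knockout).

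Relations in the knockout weakened without the 2 farthest libraries (Lyz1 with Lyz2 0.369, Lyz2 with Rpl13a -0.651, Lyz1 with Rpl13a -0.483), after centring for Lyz1 (0.725 with Lyz2, -0.737 with Rpl13a), and on TPM for Lyz1 with Rpl13a (-0.655). In the wild type, Lyz1 with Lyz2 weakened after centring (0.151), and on TPM both genes passed with Rpl13a (0.715 for Lyz2 and 0.750 for Lyz1). Leaving out a library each gave 0.658 to 0.874, -0.924 to -0.777 and -0.809 to -0.672 for the knockout relations, in the order above. Cpsf6 between genotypes turned to -0.017 (IL4, median-normalized TPM), and to -0.079 (untreated) and -0.052 (IL4) without knockout libraries 3, 6 and 9, with -0.078 to 0.17 (untreated) and -0.052 to 0.11 (IL4) over single omissions.

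Genes called between genotypes with IFN, with IL4 and in untreated cells were 8, 8 and 10, against 42, 30 and 81 with DESeq2, 24, 27 and 96 with the replicate block, 5, 3 and 39 with the Y-linked covariate, 1, 1 and 1 with the groups fitted alone, and 81, 4 and 6 without knockout libraries 3, 6 and 9. Single omissions gave 2 to 6, 1 to 4 and 1 to 11. The wild type libraries without Y-linked transcripts (IFN against IL4 then being 1 library against 1) gave 1 with IFN and 1 with IL4, and 975, 239 and 826 for IFN, IL4 and IFN against IL4 in the wild type, against 2332, 1063 and 2638. In the knockout, groups fitted alone gave 422 for IL4 (528 without libraries 3, 6 and 9), against 1186, and 1784 for IFN against IL4, against 2784. The earlier method gave 4 in untreated cells. Single omissions gave 645 to 950 for IL4 in the wild type, 734 to 1153 for IL4 in the knockout, and 0 to 9 for the difference of IFN responses, against 0. Lyz1 in wild type cells had 11 to 80 counts per library, which limits its fold changes.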
